A study of Mus musculus with 9 samples.

Results

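The cerebellins, neurexins and neuroligins were followed across 3 regions of the mouse forebrain through 8 genes: Cbln1, Cbln2, Cbln4, Nrxn2, Nrxn3, Nlgn1, Nlgn2 and Nlgn3. The members were taken by gene symbol, and 19 of the 45037 probe sets on the Affymetrix Mouse430_2 array carried one of these symbols. Of the 19, 14 passed a filter on low signal, and all 8 genes kept at least 1 of them, among 14208 genes tested. BNST stands for bed nucleus of the stria terminalis, which belongs to the extended amygdala; NAc for nucleus accumbens, the ventral striatum; and dStr for dorsal striatum. There were 3 arrays per region, labelled as biological replicates, and no strain, sex, age or treatment other than brief isoflurane before decapitation was given. The tissue was punched from chilled coronal slices of 300 µm, so each array holds a mixture of neurons, glia and vessels, and how many animals went into a punch sample was not stated. Total RNA (10 ng) was amplified repeatedly before labelling, and the deposited values are linear intensities with a floor of 15.

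Neurexins sit on the presynaptic membrane and neuroligins on the postsynaptic one, and their binding across the cleft helps to organise the synapse. Cerebellins are secreted relatives of complement C1q that bind neurexins on one side and, in the best studied case, delta glutamate receptors on the other, forming a bridge first worked out in the cerebellum. Nlgn1 protein is found mainly at excitatory synapses, Nlgn2 mainly at inhibitory ones and Nlgn3 at both. Most neurons of the NAc and dStr are GABAergic medium spiny neurons, which receive their excitatory input from cortex, thalamus and amygdala, whereas the BNST holds a more varied set of mostly GABAergic cells.

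Cbln4 had the largest differences between regions of the 8 genes, and Nlgn1 was the member that passed in the opposite direction, so the sequences upstream of their annotated starts are shown. They are the 250 bases before each start in RefSeq on GRCm38.p6, read 5′ to 3′ on the minus strand, on which both genes lie. Capitals mark matches, on either strand, to the CCAAT box (CCAAT) or the GC box (GGGCGG). The TATA box (TATAAA) was also searched and had 0 matches in these 3 windows. The Cbln4 window lies at chr2:172043467-172043716, and the Nlgn1 windows at chr3:26331910-26332159 and chr3:26153987-26154236.
Cbln4: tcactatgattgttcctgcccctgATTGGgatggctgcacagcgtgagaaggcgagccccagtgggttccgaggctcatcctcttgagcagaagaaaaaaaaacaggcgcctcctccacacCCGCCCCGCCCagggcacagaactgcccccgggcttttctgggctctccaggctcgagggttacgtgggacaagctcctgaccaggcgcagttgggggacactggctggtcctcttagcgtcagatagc
Nlgn1, upstream start: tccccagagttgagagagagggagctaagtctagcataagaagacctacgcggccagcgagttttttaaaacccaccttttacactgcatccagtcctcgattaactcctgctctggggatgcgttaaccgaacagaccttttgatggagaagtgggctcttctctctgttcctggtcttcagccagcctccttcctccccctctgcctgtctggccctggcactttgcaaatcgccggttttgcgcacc
Nlgn1, downstream start: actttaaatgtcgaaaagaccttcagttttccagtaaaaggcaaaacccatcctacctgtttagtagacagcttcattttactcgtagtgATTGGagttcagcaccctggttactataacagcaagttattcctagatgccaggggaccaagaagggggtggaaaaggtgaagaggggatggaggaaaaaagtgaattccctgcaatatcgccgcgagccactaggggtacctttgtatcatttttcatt

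The Cbln4 window held 1 CCAAT match and 2 GGGCGG matches, which share a base, and its GC content was 60.8% with 11 CG dinucleotides. The upstream Nlgn1 window held none of the 3 motifs, with a GC content of 53.6% and 9 CG dinucleotides. The downstream one held 1 CCAAT match, with a GC content of 43.6% and 5 CG dinucleotides. Among 32851 RefSeq promoter windows of the same length, 33.8% held CCAAT, 32.7% GGGCGG and 12.4% TATAAA, and the median number of CG dinucleotides was 6. These matches describe the letters in the windows, and no binding or methylation was measured here.

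Cbln4 was higher in both BNST and NAc than in dStr, Cbln2 was higher in BNST than in dStr, and Nlgn1 was lower in BNST than in dStr. Neither Nrxn2 nor Nrxn3 passed the test in any comparison. The regions were compared pairwise with limma on log2(intensity + 16), with Benjamini-Hochberg adjustment over all 14208 genes and a threshold of 0.05. Between BNST and NAc 0 of the 8 members passed, while 2.24% of all genes did, and 3 members had an unadjusted p under 0.05. Between BNST and dStr 3 of the 8 passed against 14.3% of all genes, with Cbln2 and Cbln4 higher and Nlgn1 lower in BNST. Between NAc and dStr 1 of the 8 passed, Cbln4, against 2.05% of all genes. The F test over the 3 regions was passed by Cbln4 and Nlgn1 (limma adjusted p = 0.000935 and 0.0347) and by 10.3% of all genes. The median log2 difference of the 8 members was -0.05 between BNST and NAc (all genes -0.05), 0.14 between BNST and dStr (all genes -0.06) and 0.09 between NAc and dStr (all genes -0.01). With so few members, these counts describe the 8 genes one by one. Both comparisons with dStr use the same 3 dStr arrays, so they are not independent.

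**Figure D1:**
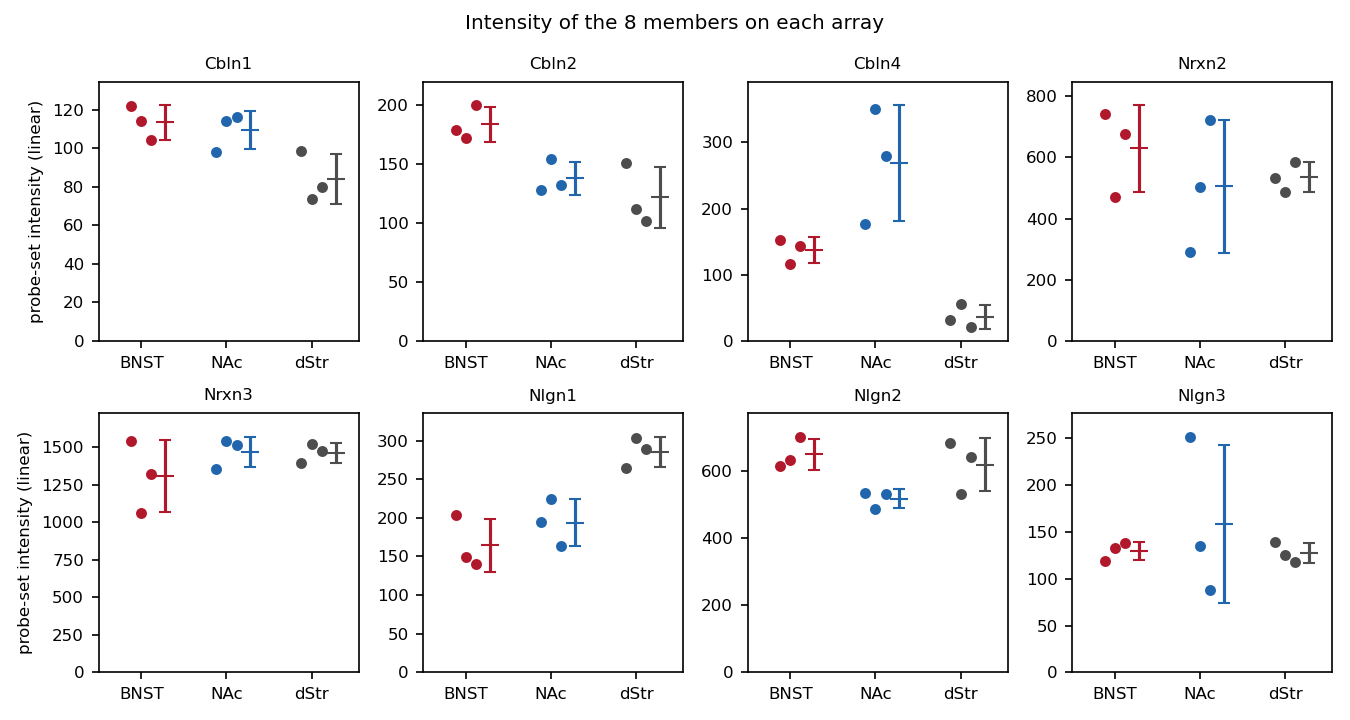
Linear probe-set intensity (vertical axes, each from 0) of the 8 members on each of the 9 arrays, by region, with the mean and SD (n = 3) beside the points; where a gene kept several probe sets, the one with the highest mean is drawn. Cbln4 is lowest on the 3 dStr arrays (21.0 to 56.5), and Nlgn1 is highest there (264 to 303).

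**Figure D2:**
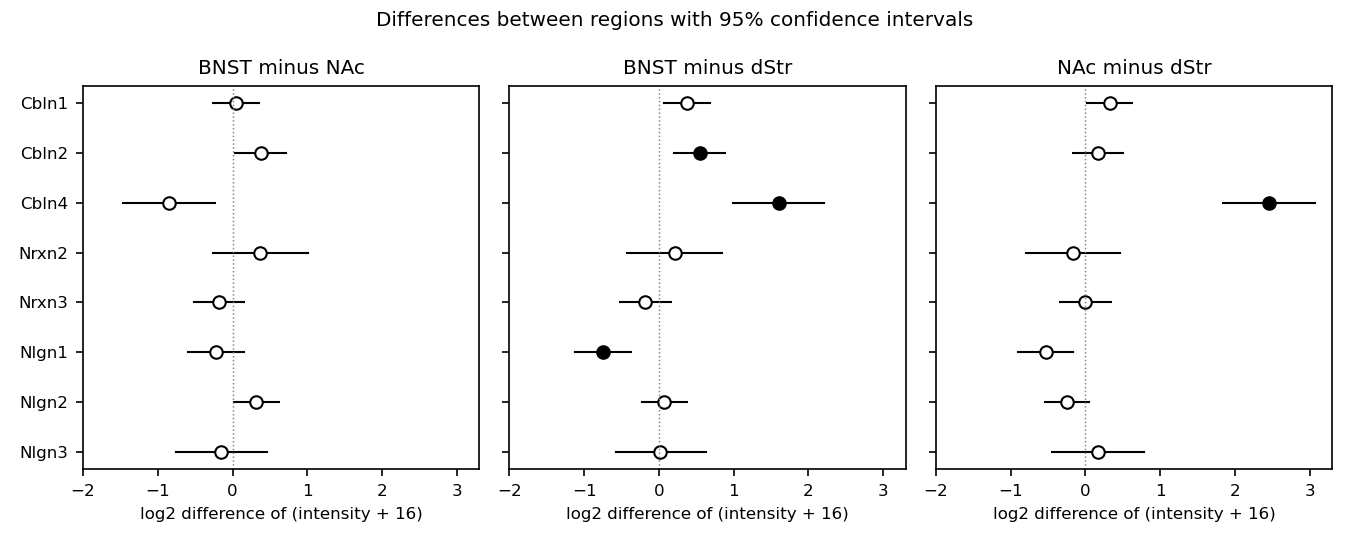
Log2 difference of (intensity + 16) between regions for the 8 members, with 95% confidence intervals from limma; filled points passed an adjusted p of 0.05 over all genes. The filled points are Cbln2, Cbln4 and Nlgn1 between BNST and dStr, and Cbln4 between NAc and dStr.

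Cbln4, a secreted cerebellin that binds neurexins but delta receptors poorly if at all, was read by 1 probe set, 1433607_at. Its intensity was 153, 116 and 143 on the BNST arrays, 177, 351 and 279 on the NAc arrays, and 31.2, 56.5 and 21.0 on the dStr arrays. All BNST and NAc arrays lay above all dStr arrays, and the 3 NAc arrays lay above the 3 BNST arrays. The means were 137 ± 19.0 in BNST, 269 ± 87.3 in NAc and 36.2 ± 18.3 in dStr (SD, n = 3 each). Cbln4 was higher in BNST than in dStr (log2 difference 1.60, SE 0.28, limma adjusted p = 0.00361) and higher in NAc than in dStr (log2 difference 2.46, SE 0.28, limma adjusted p = 0.00181). Its signal exceeded the 40th percentile on the 6 BNST and NAc arrays and on no dStr array, so Cbln4 passed the filter on low signal only through the regions in which it was high. Its dStr intensities were above the floor of 15 but in the range of probe sets that the filter removed, and the size of both differences is therefore uncertain. Without the filter both still passed (limma adjusted p = 0.0100 for BNST and 0.00836 for NAc). In tissue punches, fewer expressing cells and less RNA per cell cannot be told apart.

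The order of BNST and NAc for Cbln4 was not settled by the test. The log2 difference between BNST and NAc was -0.85 (SE 0.28, 95% confidence interval -1.46 to -0.24), with a limma adjusted p of 0.177. BNST 1 and NAc 1 differ from the arrays that share their label. Over all tested genes BNST 1 correlated more closely with NAc 3 (r = 0.965) than with BNST 2 or BNST 3 (r = 0.934 and 0.948), and NAc 1 had r = 0.938 and 0.909 with NAc 2 and NAc 3. Without these 2 arrays, a choice made after seeing the data, the Cbln4 difference between BNST and NAc was -1.18 with a limma adjusted p of 0.0158. Without either array alone it did not pass, and the adjusted p ranged over 0.0571 to 0.521 when any 1 of the 9 arrays was left out. Both differences from dStr passed without these 2 arrays, at log2 1.53 for BNST and 2.71 for NAc.

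The genes whose profile over the 9 arrays was most like that of Cbln4 were Ipcef1, Cd99l2 and Fam126a, with Pearson r of 0.981, 0.979 and 0.977 on the log2 scale. Ipcef1 had intensities of 162, 160 and 149 in BNST, 138, 307 and 224 in NAc, and 34.6, 69.4 and 25.7 in dStr. These were picked as the highest of 14208 genes over arrays that share regions and scaling, and the correlations are descriptions only.

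Cbln2, which binds neurexins and delta receptors, was read by 1434779_at at 179, 172 and 200 in BNST, 128, 154 and 132 in NAc, and 151, 112 and 102 in dStr. The 3 BNST arrays were above all 6 others, and the NAc and dStr arrays overlapped. Cbln2 was 1.46-fold higher in BNST than in dStr (log2 difference 0.55, SE 0.15, limma adjusted p = 0.0403), while the F test over the 3 regions did not pass (limma adjusted p = 0.101). That call was lost without any 1 of BNST 1, BNST 2, BNST 3, dStr 2 or dStr 3, with limma adjusted p values of 0.0545, 0.0831, 0.154, 0.116 and 0.155. Between BNST and NAc the log2 difference was 0.38 (SE 0.15, limma adjusted p = 0.328), and between NAc and dStr it was 0.17 (95% confidence interval -0.17 to 0.51).

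Cbln1, the founding cerebellin of the parallel fibre synapse, had 3 probe sets, of which 2 were kept. The gene was represented by 1423288_s_at, whose suffix in the array's naming scheme marks probes that may match several transcripts. It read 122, 114 and 104 in BNST, 97.9, 114 and 116 in NAc, and 98.7, 73.5 and 80.1 in dStr, so BNST lay above dStr on every array but by a small step. The log2 difference between BNST and dStr was 0.37 (SE 0.14, limma adjusted p = 0.103). It passed under 2 alternatives, quantile normalisation (0.43, limma adjusted p = 0.0486) and the mean of the probe sets (0.71, limma adjusted p = 0.0393).

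The other kept Cbln1 probe set, 1423286_at, spread more widely: 114, 109 and 143 in BNST, 32.8, 88.9 and 142 in NAc, and 42.0, 57.1 and 53.5 in dStr. NAc 1 was the lowest of the 9 arrays on it and NAc 3 the next to highest. It was 2.06-fold higher in BNST than in dStr (log2 difference 1.04, SE 0.34) with a limma adjusted p of 0.0731 over the 29293 kept probe sets. Without NAc 1 the same probe set passed in BNST against dStr (limma adjusted p = 0.00374) and in NAc against dStr (0.95, limma adjusted p = 0.0436), and without NAc 3 in BNST against dStr (limma adjusted p = 0.0267). The third, 1423287_at, was below the filter, with 72.5, 36.6 and 52.9 in BNST, 15, 37.1 and 57.8 in NAc, and the floor of 15 on every dStr array.

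Of 7 tested genes that encode cerebellin receptors or C1q-like relatives, 1 was lower between BNST and NAc (median log2 difference -0.12), 1 was higher and 1 lower between BNST and dStr (median -0.19), and 0 passed between NAc and dStr in limma (median -0.07, 3 at an unadjusted p under 0.05). For these and the other gene lists, 2.24% of all genes passed in BNST against NAc, 14.3% in BNST against dStr and 2.05% in NAc against dStr, and the medians of all genes were -0.05, -0.06 and -0.01 in that order. Dcc, a netrin receptor that Cbln4 is reported to bind, read 121, 88.4 and 97.6 in BNST, 221, 316 and 313 in NAc, and 370, 429 and 515 in dStr. The 3 regions did not overlap on this probe set, and dStr was highest, the region in which Cbln4 was lowest. Dcc was lower in BNST than in NAc (log2 difference -1.33, SE 0.18, limma adjusted p = 0.00575) and than in dStr (-1.94, SE 0.18, limma adjusted p = 0.000152). Of its 2 other kept probe sets, 1 had the same sign and 1 the opposite (0.16 and 0.11), so the reading depends on the probe set. On the mean of the probe sets and on the most variable one the call between BNST and NAc was lost (limma adjusted p = 0.0568 and 0.157). C1ql2, a C1q-like secreted protein of the same superfamily, read 83.4, 85.4 and 87.6 in BNST, 68.8, 42.1 and 85.0 in NAc, and 20.3, 17.2 and 49.2 in dStr. It was higher in BNST than in dStr, where its signal was low (log2 difference 1.24, limma adjusted p = 0.0105, or 0.0535 without dStr 1). Its dStr intensities were in the range of probe sets that the filter removed. C1ql2 therefore passed the filter only through the other regions, and the size of this difference is uncertain. Grid1, the delta receptor gene measured here, had a log2 difference of -0.19 between BNST and dStr (limma adjusted p = 0.482).

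Among the neurexins, Nrxn3 was read by 5 kept probe sets, none of which passed with all 9 arrays. The brightest, 1433788_at, read 1540, 1060 and 1320 in BNST, 1350, 1540 and 1510 in NAc, and 1390, 1520 and 1470 in dStr. The regions overlapped, and the log2 differences were -0.18 for BNST against either other region and 0.00 between NAc and dStr (95% confidence interval of the last -0.34 to 0.34). Another, 1456137_at, read 805, 291 and 274 in BNST, 400, 768 and 762 in NAc, and 722, 746 and 1020 in dStr. On it BNST 1 was above both other BNST arrays and NAc 1 below both other NAc arrays. Its log2 difference between BNST and dStr was -1.0 (SE 0.39, limma adjusted p = 0.122), -1.49 without BNST 1 (limma adjusted p = 0.00637) and -1.49 without BNST 1 and NAc 1 (limma adjusted p = 0.000161). Between BNST and NAc it was -0.60 (limma adjusted p = 0.627), and -1.39 without those 2 arrays (limma adjusted p = 0.00166).

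The dimmest kept Nrxn3 probe set, 1432931_at, read 61.3, 52.0 and 40.3 in BNST, 80.2, 65.4 and 77.9 in NAc, and 65.8, 76.6 and 76.0 in dStr. The BNST arrays were below all others on it, with a log2 difference from dStr of -0.41 (SE 0.15, limma adjusted p = 0.0995, or 0.0446 without BNST 1). The remaining pair, 1438193_at and 1439629_at, had log2 differences between BNST and dStr of -0.26 and 0.25, and their arrays overlapped in every comparison. Nrxn3 has long and short forms and many splice forms, and which of them each probe set reads was not worked out here.

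**Figure D3:**
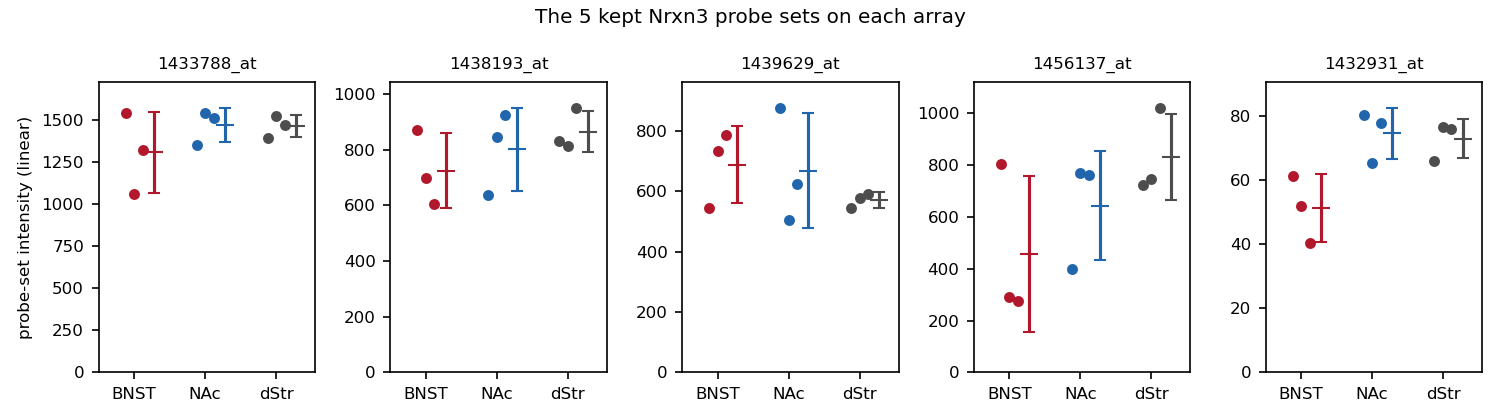
Linear intensity (vertical axes, each from 0) of the 5 kept Nrxn3 probe sets on each array, by region, with the mean and SD (n = 3). On 1456137_at the first BNST array (805) lies far above the other BNST arrays (291 and 274), while on 1432931_at all BNST arrays (40.3 to 61.3) lie below the NAc and dStr arrays.

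Nrxn2 was read at 742, 470 and 676 in BNST, 290, 503 and 724 in NAc, and 532, 488 and 585 in dStr by 1435907_at, and all 3 regions overlapped. Its log2 difference was 0.37 between BNST and NAc (95% confidence interval -0.26 to 1.01) and 0.21 between BNST and dStr (-0.43 to 0.84). Intervals this wide leave room for differences as large as those of Nlgn1. A second Nrxn2 probe set was below the filter on low signal, with intensities of 27.5 to 61.2.

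Of 13 other tested ligands of the neurexins, 1 was higher and 1 lower between BNST and NAc (median log2 difference -0.11), 0 higher and 5 lower between BNST and dStr (median -0.43), and 0 higher and 3 lower between NAc and dStr (median -0.19). Over all genes the medians were -0.05, -0.06 and -0.01, and 702 were higher and 1325 lower between BNST and dStr, 14.3% in all. All 4 members of the Lrrtm family, leucine-rich postsynaptic proteins that bind neurexins at excitatory synapses, were among the 5 lower in BNST than in dStr, and the other was Igsf21, a neurexin ligand of inhibitory synapses.

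Lrrtm4 read 52.1, 29.1 and 34.3 in BNST, 139, 138 and 77.3 in NAc, and 96.0, 129 and 103 in dStr, with every BNST array below every other. It was lower in BNST than in dStr (log2 difference -1.22, SE 0.23, limma adjusted p = 0.00571), a call that held without any 1 array. Its BNST intensities were in the range of probe sets that the filter removed. Lrrtm4 therefore passed the filter only through NAc and dStr, where it was high, and the size of its differences is uncertain. It was also lower in BNST than in NAc (-1.28, SE 0.23, limma adjusted p = 0.0182), with adjusted p values of 0.0786, 0.0955 and 0.0885 without BNST 2, BNST 3 or NAc 2. Lrrtm1 read 158, 76.2 and 155 in BNST, 114, 303 and 240 in NAc, and 339, 345 and 422 in dStr. It was 2.73-fold lower in BNST than in dStr (limma adjusted p = 0.0155, or 0.0602 and 0.0658 without BNST 2 or dStr 3).

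Lrrtm2 read 191, 183 and 169 in BNST, 177, 227 and 129 in NAc, and 301, 344 and 335 in dStr, so that dStr stood above both other regions. Its log2 difference was -0.80 between BNST and dStr (limma adjusted p = 0.0135) and -0.85 between NAc and dStr (limma adjusted p = 0.0377). The first was lost without BNST 3, dStr 2 or dStr 3 (0.0635, 0.0510 and 0.0556), and the second without any 1 of BNST 2, BNST 3, NAc 1, NAc 3 or the 3 dStr arrays (0.0508 to 0.163). On the mean of the Lrrtm2 probe sets neither passed (limma adjusted p = 0.0853 and 0.153). Lrrtm3 read 315, 287 and 340 in BNST, 1000, 682 and 437 in NAc, and 591, 596 and 531 in dStr. It was lower in BNST than in dStr (-0.84, SE 0.24, limma adjusted p = 0.0442), but the call was lost without any 1 of BNST 1, BNST 2, BNST 3, NAc 2 or the 3 dStr arrays (0.0635 to 0.139). The other kept probe sets of the 4 Lrrtm genes, 7 in all, had the same sign between BNST and dStr.

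**Figure D4:**
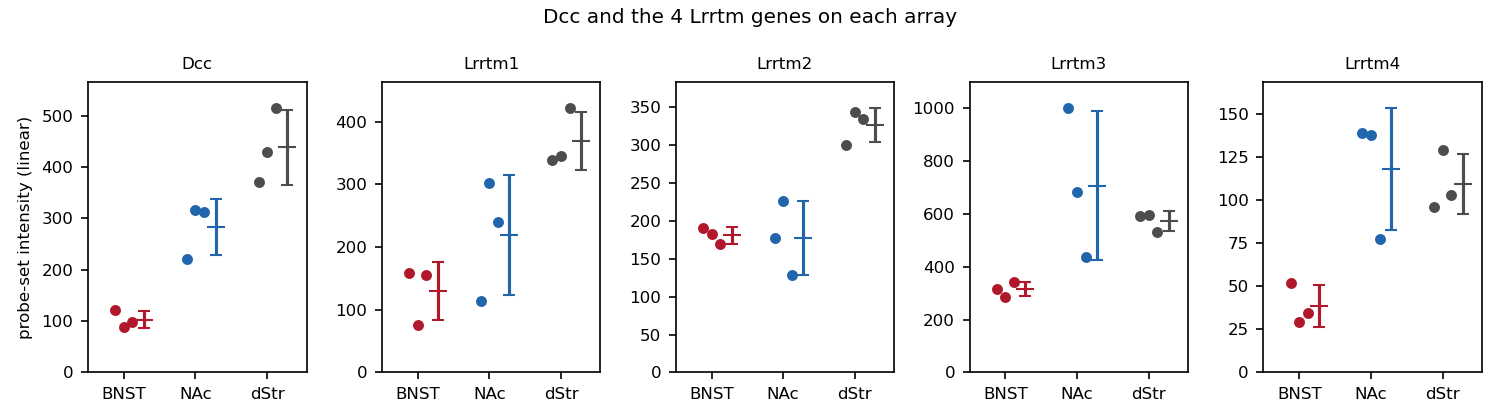
Linear intensity (vertical axes, each from 0) of Dcc and the 4 Lrrtm genes on each array, by region, with the mean and SD (n = 3). For all 5 genes the BNST arrays lie below the dStr arrays, and NAc overlaps dStr for Lrrtm3 and Lrrtm4 but not for Dcc, Lrrtm1 or Lrrtm2.

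Clstn2, a calsyntenin, was lower in NAc than in both other regions. It read 217, 220 and 219 in BNST, 106, 137 and 147 in NAc, and 218, 244 and 247 in dStr. It was higher in BNST than in NAc (log2 difference 0.69, limma adjusted p = 0.0303) and lower in NAc than in dStr (-0.79, limma adjusted p = 0.0150). The first call was lost without any 1 of 7 arrays, all but BNST 1 and NAc 3 (0.0590 to 0.129), and the second without dStr 2 or dStr 3 (0.0691 and 0.0870).

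Of the neuroligins, Nlgn1 passed the test, between BNST and dStr. Its kept probe set, 1437160_at, read 204, 149 and 140 in BNST, 194, 224 and 163 in NAc, and 264, 303 and 289 in dStr. All dStr arrays lay above all BNST and NAc arrays, and BNST and NAc overlapped. The means were 165 ± 34.7 in BNST, 194 ± 30.6 in NAc and 285 ± 19.5 in dStr (SD, n = 3 each). Nlgn1 was 1.69-fold lower in BNST than in dStr (log2 difference -0.75, SE 0.17, limma adjusted p = 0.0131). The difference lost significance without BNST 2, BNST 3, dStr 2 or dStr 3, with limma adjusted p values of 0.0574, 0.0674, 0.0503 and 0.0530 and log2 differences of -0.66 to -0.74. Between NAc and dStr the log2 difference was -0.53 (SE 0.17, limma adjusted p = 0.173), and between BNST and NAc it was -0.22 (SE 0.17, limma adjusted p = 0.687).

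The profiles most like that of Nlgn1 over the 9 arrays were those of Nipa1, Klf10 and Zdhhc13, with Pearson r of 0.987, 0.977 and 0.976. Nipa1 read 495, 346 and 306 in BNST, 458, 518 and 376 in NAc, and 570, 645 and 618 in dStr. The second Nlgn1 probe set, 1421648_at, was below the filter, at 15 to 42.9 over the 9 arrays.

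Nlgn2, the neuroligin of inhibitory synapses, was read by 2 kept probe sets that disagreed. On 1455143_at it read 616, 635 and 704 in BNST, 537, 487 and 532 in NAc, and 686, 532 and 643 in dStr. The BNST arrays lay above the NAc arrays there (log2 difference 0.32, SE 0.13, limma adjusted p = 0.349) and overlapped dStr (0.07, limma adjusted p = 0.762). On 1460013_at it read 248, 187 and 221 in BNST, 253, 245 and 253 in NAc, and 292, 282 and 309 in dStr. Here the dStr arrays lay above all others, and the log2 difference between BNST and dStr was -0.41 (SE 0.13, limma adjusted p = 0.0659, or 0.0327 without BNST 1). When all probe sets were tested without the filter on low signal, 1460013_at passed between BNST and dStr, and the Cbln2 probe set did not. The direction of Nlgn2 between BNST and both other regions therefore depends on the probe set.

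Nlgn3 read 119, 133 and 138 in BNST, 252, 135 and 88.3 in NAc, and 139, 126 and 118 in dStr on 1436135_at. BNST and dStr covered nearly the same range, while the NAc arrays spread widely, with NAc 1 the highest and NAc 3 the lowest of the 9. The log2 difference was 0.02 between BNST and dStr (95% confidence interval -0.58 to 0.63), -0.15 between BNST and NAc and 0.17 between NAc and dStr. Its other 2 probe sets were below the filter, at 22.6 to 66.2.

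A list of neuroligin inhibitors and synaptic adhesion genes and lists of postsynaptic scaffold genes were counted beside the members. Of the 4 tested genes in the first list (Mdga2, Ptprd, Ptprs and Ptprf, with Mdga1 below the filter) 0 passed in any comparison. The lowest limma adjusted p among them was 0.170 (Ptprs between BNST and dStr, the 1 unadjusted p under 0.05). Of 14 excitatory postsynaptic scaffold genes, 2 were higher and 5 lower between BNST and dStr (median log2 difference -0.47), 1 was higher and 1 lower between BNST and NAc (median -0.56), and 0 passed between NAc and dStr in limma (median 0.06, 5 at an unadjusted p under 0.05). Of all genes 14.3%, 2.24% and 2.05% passed in these comparisons, with medians of -0.06, -0.05 and -0.01. The 2 that were higher in BNST than in dStr were Homer2 (log2 difference 1.58, limma adjusted p = 0.000124) and Magi1 (0.92, limma adjusted p = 0.0372). Homer2 read 530, 456 and 600 in BNST, 170, 209 and 171 in NAc, and 155, 163 and 178 in dStr. Of the 3 other Magi1 probe sets 1 went the other way, and the call was lost without any 1 of BNST 1, BNST 2, BNST 3, NAc 2 or the 3 dStr arrays (0.0505 to 0.147) and on the mean of the probe sets (0.380). Dlgap2, Homer1, Dlgap3 and Shank3 had log2 differences of -2.60, -2.29, -1.91 and -1.23 between BNST and dStr (limma adjusted p = 0.00150, 0.000377, 0.00409 and 0.00127), and each stayed lower in BNST past the threshold when any 1 array was left out. Dlgap2 read 94.4, 30.7 and 27.1 in BNST, and the lower values were in the range of probe sets that the filter removed. The size of the Dlgap2 difference is therefore uncertain.

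Of 7 inhibitory postsynaptic scaffold genes, 1 was higher and 2 lower between BNST and dStr (median log2 difference -0.29), 0 passed between BNST and NAc in limma (median -0.10, 2 at an unadjusted p under 0.05), and 1 was higher between NAc and dStr (median -0.18), beside the same shares and medians of all genes. Gphn, which encodes gephyrin, the scaffold that Nlgn2 binds, read 459, 323 and 358 in BNST, 443, 601 and 496 in NAc, and 720, 629 and 774 in dStr. It was 1.84-fold lower in BNST than in dStr (limma adjusted p = 0.00657), the sign that 1460013_at of Nlgn2 had and 1455143_at did not. The 2 other kept Gphn probe sets had log2 differences of -1.21 and -0.19 there. Slitrk3, an adhesion protein of inhibitory synapses, was 2.58-fold lower in BNST than in dStr (limma adjusted p = 0.00544). Iqsec3, a gephyrin-binding exchange factor, read 935, 707 and 800 in BNST, 568, 693 and 977 in NAc, and 410, 387 and 374 in dStr, and was 2.03-fold higher in BNST than in dStr (limma adjusted p = 0.00571).

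On the presynaptic side, 1 of 13 scaffold and neurexin-splicing genes was higher and 2 lower between BNST and dStr (median log2 difference -0.15), 1 higher and 2 lower between BNST and NAc (median -0.29), and 1 higher and 1 lower between NAc and dStr (median 0.09), again beside 14.3%, 2.24% and 2.05% of all genes. Apba2, the Mint2 adaptor of the neurexin tail, read 287, 391 and 414 in BNST, 182, 152 and 165 in NAc, and 109, 81.3 and 47.1 in dStr. It was 4.11-fold higher in BNST than in dStr (limma adjusted p = 0.000364). Lin7b, a partner of the neurexin-binding kinase Cask, read 309, 205 and 266 in BNST, 422, 536 and 410 in NAc, and 832, 849 and 844 in dStr, with no overlap between any regions. It was 3.15-fold lower in BNST than in dStr (limma adjusted p = 0.000165). Rbfox1, a splicing regulator, was 1.75-fold lower in BNST than in dStr (limma adjusted p = 0.00544). Of 28 other synaptic adhesion genes, 4 were higher and 8 lower between BNST and dStr (median log2 difference -0.36), 0 higher and 1 lower between BNST and NAc (median -0.04), and 1 higher and 0 lower between NAc and dStr (median -0.18). The teneurin gene Tenm1 and the leucine-rich repeat gene Slitrk1 were higher in BNST than in dStr (log2 differences 1.59 and 1.48, limma adjusted p = 0.00271 and 0.00168). The Tenm1 call was lost on the mean of its probe sets (limma adjusted p = 0.0537) and on the most variable one (0.234). Flrt3, a latrophilin ligand, and Il1rapl1, a partner of presynaptic receptor phosphatases, were lower (-1.36 and -1.46, limma adjusted p = 0.00448 and 0.00138). Il1rapl1 read 87.6, 42.4 and 47.1 in BNST, and the lower values were in the range of probe sets that the filter removed. The size of the Il1rapl1 difference is therefore uncertain.

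The members were also compared by whether the arrays of 2 regions overlapped. Between BNST and NAc, Cbln2 and Nlgn2 lay wholly above and Cbln4 wholly below, 3 of 8 against 14.6% of all genes that did not overlap. Between BNST and dStr, Cbln1, Cbln2 and Cbln4 lay above and Nlgn1 below, 4 of 8 against 36.4% of all genes. Between NAc and dStr, Cbln4 lay above and Nlgn1 below, 2 of 8 against 19.1%. Counted by probe set, the members that passed were again Cbln2, Cbln4 and Nlgn1 between BNST and dStr and Cbln4 between NAc and dStr, with 0 of the 14 between BNST and NAc in limma (4 at an unadjusted p under 0.05), and 13.6%, 1.68% and 1.81% of all kept probe sets passed in those comparisons.

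Several lists of cell-type markers differed between the regions, and their part in the differences above was not tested. The summed intensity of 8 medium spiny neuron markers was 3570 to 7550 in BNST, 13600 to 20700 in NAc and 21500 to 24000 in dStr, the order that Nlgn1 and Dcc also followed in their means. The sum of 7 microglia and endothelium markers had the same order, 1370 to 1570 in BNST, 1540 to 1840 in NAc and 2100 to 2330 in dStr, and 2 of the 7 were lower in BNST than in dStr. The sum of 7 glutamatergic and thalamic markers was 4010 to 5020 in BNST, 2400 to 3120 in NAc and 2340 to 3120 in dStr. In that list Slc17a6, Prkcd, Calb2 and Tac2 were higher in BNST than in both other regions, whereas Tcf7l2 and Rora had log2 differences of -0.39 and -0.23 between BNST and dStr (limma adjusted p = 0.321 and 0.603). Slc17a7, of the same list, was below the filter, at 46.8 to 61.8 in BNST, 41.8 to 51.1 in NAc and 44.6 to 54.3 in dStr. The list was not uniform, and its sum is not a measure of glutamatergic or thalamic cells alone. The sum of 8 astrocyte markers was 11300 to 12700 in BNST, 8760 to 9070 in NAc and 7700 to 8110 in dStr, and both this sum and that of the glutamatergic and thalamic markers were highest in BNST, as Cbln2 was. Cbln4 had its highest mean in NAc, although its order between BNST and NAc was not settled by the test. Beside it, 7 interneuron markers summed to 6690 to 7670 in BNST, 7680 to 8250 in NAc and 6380 to 7340 in dStr. Between BNST and NAc 0 of the 7 passed in limma. Of these 7, 1 passed as higher in BNST than in dStr and 1 in NAc than in dStr, Gad2 both times, and the list's median log2 differences were -0.03 and 0.03. The sum is mostly Gad1 and Gad2, which GABAergic projection neurons also express. Ependymal and choroid plexus markers (6 genes) summed to 1480 to 3080 in BNST, 459 to 507 in NAc and 406 to 549 in dStr, with Otx2 at the floor on all NAc and dStr arrays. Of the 6, 4 passed as higher in BNST than in NAc and 4 as higher than in dStr. The choroid plexus gene Ttr overlapped, at 277 to 621 in BNST, 276 to 304 in NAc and 271 to 308 in dStr. So did Folr1, at 105 to 155, 109 to 132 and 44.1 to 171. The sum is therefore not a measure of choroid plexus. Of the cortical markers, the 2 tested ones summed to 421 to 674 in BNST, 279 to 332 in NAc and 269 to 323 in dStr, and 1 of them, Nrn1, was higher in BNST than in NAc and dStr (log2 differences 1.65 and 1.60, limma adjusted p = 0.00779 and 0.00182). The defining cortical genes Neurod6 and Tbr1 stood at the floor on 8 and 7 of the 9 arrays. The 8 pan-neuronal markers summed to 11700 to 14000 in BNST, 13200 to 17300 in NAc and 13300 to 14700 in dStr. Of these 8, 1 was higher and 2 lower in BNST than in dStr, and 1 was higher in BNST than in NAc. This list was therefore not uniform either. The sums of 7 oligodendrocyte markers overlapped between all regions, at 15400 to 17400 in BNST, 13000 to 17700 in NAc and 15500 to 17200 in dStr. Those of 5 oligodendrocyte precursor markers were 2590 to 2850 in BNST, 1580 to 3000 in NAc and 2050 to 2270 in dStr. In both lists 0 genes passed in any comparison in limma.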

How the data were processed

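The authors deposited linear probe-set intensities for 9 arrays, 45037 probe sets each, in a single table. How they were summarised and scaled is not given in the sources. Low values stood at a floor of 15 (2270 to 2698 probe sets per array). Array medians were 93.9 to 102, a largest gap of 0.12 (log2), so the deposited scaling was kept. No scan date or batch was given. The number of arrays limits the precision.

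Regions were taken from the sample labels. Probe sets above their array's 40th percentile on at least 3 of 9 arrays were kept (29293). Gene names came from GEO's platform annotation (34945 probe sets with 1 symbol, 932 with several, 9160 with none), of which 34741 matched RefSeq by Entrez identifier and 0 changed. Where a gene kept several, the one with the highest mean stood for it. log2(intensity + 16) was fitted with limma 3.58.1 in R 4.3.3, 1 mean per region over all 9 arrays (6 residual degrees of freedom), with an empirical Bayes moderated 2-sided test, Benjamini-Hochberg adjustment over 14208 genes and a threshold of 0.05. Member probe sets were adjusted over all 29293 kept. The procedure was tested on simulated data with 200 changed genes. It recovered 65% to 71% of log2 differences of 1 and 96% to 99% of those of 2, with 4 to 6 false calls. The changes were placed only in genes whose mean was above the median, so recovery in dimmer genes was not tested. P-values measure the spread between these arrays, since the labels say biological replicate but do not name the animals.

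All members were named. From each pathway list the text draws on up to 4 passing genes per comparison and direction, by size of difference, and for each member that passed the F test on the 3 genes most alike. Grid1, Igsf21 between BNST and dStr, the 4 genes listed with the neuroligin inhibitors and the single marker genes were named after their values were seen. The members and lists were chosen with earlier results of these data known. Deviations of same-numbered arrays from their region means had correlations of -0.51 (BNST 1 with NAc 1) to 0.26, with no common direction. The numbers were therefore not treated as pairs. With 3 arrays per region, these correlations cannot show whether same-numbered arrays share animals.

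Alternatives were quantile normalisation, median centring, no filter, a 60th percentile filter, the mean or the most variable probe set of a gene, a trend and robust prior, a replicate block, pseudocounts of 1 and 64, the 2 regions alone, a log2 difference of at least 1, and leaving out each array. Leaving out BNST 1 and NAc 1 together was added after seeing the data. Promoter windows came from RefSeq (GRCm38.p6), which was used for no other coordinates.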

Additional observations from a re-analysis of the deposited data

How the results depend on the processing

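Cbln4 stayed past the threshold in all 21 alternatives in both BNST and NAc against dStr (log2 difference 1.02 to 2.00 and 1.71 to 2.92, the ends being pseudocounts of 64 and 1). The 21 include the fit without BNST 1 and NAc 1, which was added after seeing the data. Cbln4, Cbln2 and Nlgn1 each kept 1 probe set. The alternatives of filter and probe set therefore left their differences unchanged and altered only the other genes in the fit. Cbln2 between BNST and dStr passed in 15 of 21 and was lost with the replicate block (limma adjusted p = 0.0892), and Nlgn1 passed in 17 of 21; the losses named with both genes came from fits with fewer arrays. With the replicate block 196 genes passed between BNST and NAc, 183 between NAc and dStr and 953 in the F test. With a log2 difference of at least 1 the counts were 866 between BNST and dStr, 175 between NAc and dStr and 844 in the F test, and 1 member and 1 member probe set remained between BNST and dStr. Using the 2 regions alone left 71 genes between BNST and NAc. Without BNST 1 and NAc 1 the counts were 2203, 4150, 707 and, in the F test, 3686; 1 member and 2 member probe sets passed between BNST and NAc, 7 probe sets between BNST and dStr, and 2 in NAc against dStr. Leaving out 1 array gave 101 to 617 genes between BNST and NAc (without BNST 3 and without BNST 1), 1112 to 2674 between BNST and dStr (the same arrays), 112 to 419 between NAc and dStr (without dStr 3 and without NAc 1) and 740 to 1962 in the F test (without BNST 3 and without NAc 1), with 1 (without BNST 2, BNST 3, dStr 2 or dStr 3) to 3 members and 1 to 5 member probe sets between BNST and dStr, and 1 to 2 probe sets between NAc and dStr. Under quantile normalisation 200 genes were higher and 235 lower between BNST and NAc (108 and 210 as deposited) and 1266 and 1164 between BNST and dStr (702 and 1325), where the median of all genes was 0.06 in place of -0.06; Cbln4, Cbln2 and Nlgn1 had 1.65, 0.64 and -0.64 there. Signs turned for differences that had not passed. Without BNST 1 and NAc 1, Cbln1, Nrxn2 and Nlgn3 had -0.07, -0.10 and 0.27 between BNST and NAc, and Nrxn2 and Nlgn3 had 0.17 and -0.19 between NAc and dStr. Nlgn2 had -0.19 between BNST and NAc and -0.41 between BNST and dStr on its most variable probe set, and -0.17 between BNST and dStr as the mean of its probe sets. Leaving out 1 array, Cbln1 ranged over -0.02 to 0.10 and Nlgn3 over -0.46 to 0.22 between BNST and NAc, Nlgn2 over -0.03 to 0.15 and Nlgn3 over -0.03 to 0.08 between BNST and dStr, and Nrxn2 over -0.47 to 0.17 and Nlgn3 over -0.19 to 0.49 between NAc and dStr. The cause was not tested. Of the 42 pathway calls that the naming rule covers, not all of which are described, 21 held without any 1 array and 19 in every alternative. With 3 arrays a region, small differences near the floor cannot be resolved.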
